A study of Mus musculus with 10 samples.

Results

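The genes examined here encode the TAL1 complex and its close partners: Tal1, Lyl1, Lmo2, Ldb1, Tcf3, Cbfa2t3, Zfpm1 and Runx1. All 8 genes were chosen by name, and every ATAC-seq peak from 50 kb upstream to 50 kb downstream of their annotated spans was taken. These windows held 497 of the 146939 peaks in all libraries together. With each peak summit extended by 250 bp on both sides and overlapping windows merged, the peaks formed 98 open regions of 28981 across the genome. A region is named by its gene and its distance in kb from the most upstream annotated start of that gene, with a plus sign for downstream. Of the 98 regions, 12 lay within 1 kb of a start of the gene itself (own promoter), 18 within 1 kb of the start of another gene (other promoter), and 68 were distal.

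ATAC-seq marks open chromatin by the insertion of sequencing adaptors by the transposase Tn5. It was performed in G1E-ER4 cells, 1 clone of a Gata1-null mouse erythroid line that expresses GATA1 fused to an estrogen-responsive receptor domain, grown in stem cell factor and erythropoietin. Cells were left untreated (0 h) or kept in 1e-07 M β-estradiol for 2, 6, 12 or 24 h, and each of these 5 groups has 2 libraries, 10 in all. Every group therefore lacks endogenous Gata1 and carries the fusion, and the 0 h libraries are the only ones without β-estradiol. The study describes its time course as independent experiments, and the labels give each library a replicate number without naming a culture or day.

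TAL1 and LYL1 are closely related basic helix-loop-helix factors of blood cells. Each binds an E-box as a heterodimer with E2A, the product of Tcf3. LMO2 and LDB1 bridge that dimer to a GATA factor, and LDB1 can also bring distant sites together by pairing with itself. CBFA2T3 (ETO2) is a corepressor in the same complex, ZFPM1 (FOG1) is the cofactor that binds GATA1 directly, and RUNX1 is a factor of blood stem and progenitor cells that meets the complex at many enhancers. A known sequence signature of the complex is a short E-box remnant, CTG, followed after 7 or 8 bases by a GATA site.

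The lists gave 1 score per peak, the −log10 q-value of the peak caller, which is not scaled between libraries. Each list held 10698 to 19859 peaks, and 38 to 65 of them, or 0.266% to 0.376%, lay in the windows of the 8 genes. Scores were therefore read as ranks counted from the top of a library's own list, where rank 1 is the strongest peak. Read depth is unknown, so a region that is not listed may be open below the peak caller's limit. Among erythroid or progenitor marker genes, the promoters of Klf1, Epor, Kit, Tfrc and Ank1 were listed in both 0 h libraries, and those of Gata2, Alas2 and Slc4a1 in none of the 10. Of 7 genes of other lineages, the promoter of Spi1 alone was listed.

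The TAL1-GATA composite, read as CTG, then 7 or 8 bases, then AGATAA or TGATAA on either strand, was found in the central 200 bp of 12 of the 98 regions. The matches at the regions described below are printed first, 5′ to 3′ on their own strand, to show how they differ inside the spacer. Capitals mark the CTG and the GATA site.
Tal1 +39.5 kb, chr4:115095965-115095981, plus strand: CTGgtagaaacTGATAA
Lyl1 +0.2 kb, chr8:84701643-84701659, minus strand: CTGgccgcggcTGATAA
Lyl1 +29.5 kb, chr8:84730908-84730923, minus strand: CTGgtggctcTGATAA
Lyl1 +29.5 kb, chr8:84730979-84730995, minus strand: CTGtgaacaggAGATAA
Cbfa2t3 -0.2 kb, chr8:122699211-122699227, plus strand: CTGtgtcacagTGATAA
Cbfa2t3 -20.8 kb, chr8:122719929-122719945, plus strand: CTGtgagaagaAGATAA
Cbfa2t3 -21.5 kb, chr8:122720552-122720568, plus strand: CTGcgcgggcaAGATAA
Zfpm1 +2.7 kb, chr8:122284836-122284852, minus strand: CTGgtggccgtAGATAA
Runx1 +24.7 kb, chr16:92801741-92801757, minus strand: CTGcgcgccacTGATAA
Runx1 -48.1 kb, chr16:92874200-92874216, plus strand: CTGttttcagaTGATAA

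The open sequence around the summit is shown for the regions on which the results below turn, as 221 bp of the plus strand of mm10 centred on the median summit. Capitals mark every GATA consensus (AGATAA or TGATAA, or the reverse, TTATCT or TTATCA) and every composite. They are the distal regions of Tal1, Lyl1, Cbfa2t3 and Runx1 with the best mean log2 rank among those listed in all 10 libraries, and the only regions in these windows that were lost by 24 h, both at Zfpm1.
Tal1 +39.5 kb, chr4:115095764-115095984: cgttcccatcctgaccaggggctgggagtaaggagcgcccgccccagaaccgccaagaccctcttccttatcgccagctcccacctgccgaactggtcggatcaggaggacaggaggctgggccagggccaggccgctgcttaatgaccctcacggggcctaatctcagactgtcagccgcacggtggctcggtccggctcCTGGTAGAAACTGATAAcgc
Lyl1 +29.5 kb, chr8:84730848-84731068: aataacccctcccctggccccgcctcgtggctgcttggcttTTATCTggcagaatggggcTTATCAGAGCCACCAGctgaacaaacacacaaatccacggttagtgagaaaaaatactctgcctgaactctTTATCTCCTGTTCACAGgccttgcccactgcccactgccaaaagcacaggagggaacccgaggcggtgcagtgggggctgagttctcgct
Cbfa2t3 -37.1 kb, chr8:122736268-122736488: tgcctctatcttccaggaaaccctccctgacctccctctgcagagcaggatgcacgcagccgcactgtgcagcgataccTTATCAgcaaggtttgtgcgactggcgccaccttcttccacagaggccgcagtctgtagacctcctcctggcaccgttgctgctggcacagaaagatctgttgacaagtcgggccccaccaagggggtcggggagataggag
Runx1 +24.7 kb, chr16:92801681-92801901: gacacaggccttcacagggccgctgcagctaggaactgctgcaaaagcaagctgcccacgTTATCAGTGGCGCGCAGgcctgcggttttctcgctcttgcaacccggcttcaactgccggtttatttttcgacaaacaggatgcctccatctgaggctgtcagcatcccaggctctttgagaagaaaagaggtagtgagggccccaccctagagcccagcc
Zfpm1 +2.7 kb, chr8:122284680-122284900: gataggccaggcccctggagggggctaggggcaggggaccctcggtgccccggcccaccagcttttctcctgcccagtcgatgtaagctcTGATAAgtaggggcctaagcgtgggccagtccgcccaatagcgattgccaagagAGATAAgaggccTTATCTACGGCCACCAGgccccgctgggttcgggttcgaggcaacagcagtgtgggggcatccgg
Zfpm1 +31.4 kb, chr8:122313439-122313659: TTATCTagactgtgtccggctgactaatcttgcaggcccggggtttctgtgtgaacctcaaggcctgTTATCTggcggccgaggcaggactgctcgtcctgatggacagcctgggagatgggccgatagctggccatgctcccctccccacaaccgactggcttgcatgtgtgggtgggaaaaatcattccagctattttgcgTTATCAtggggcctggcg

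**Figure D1:**
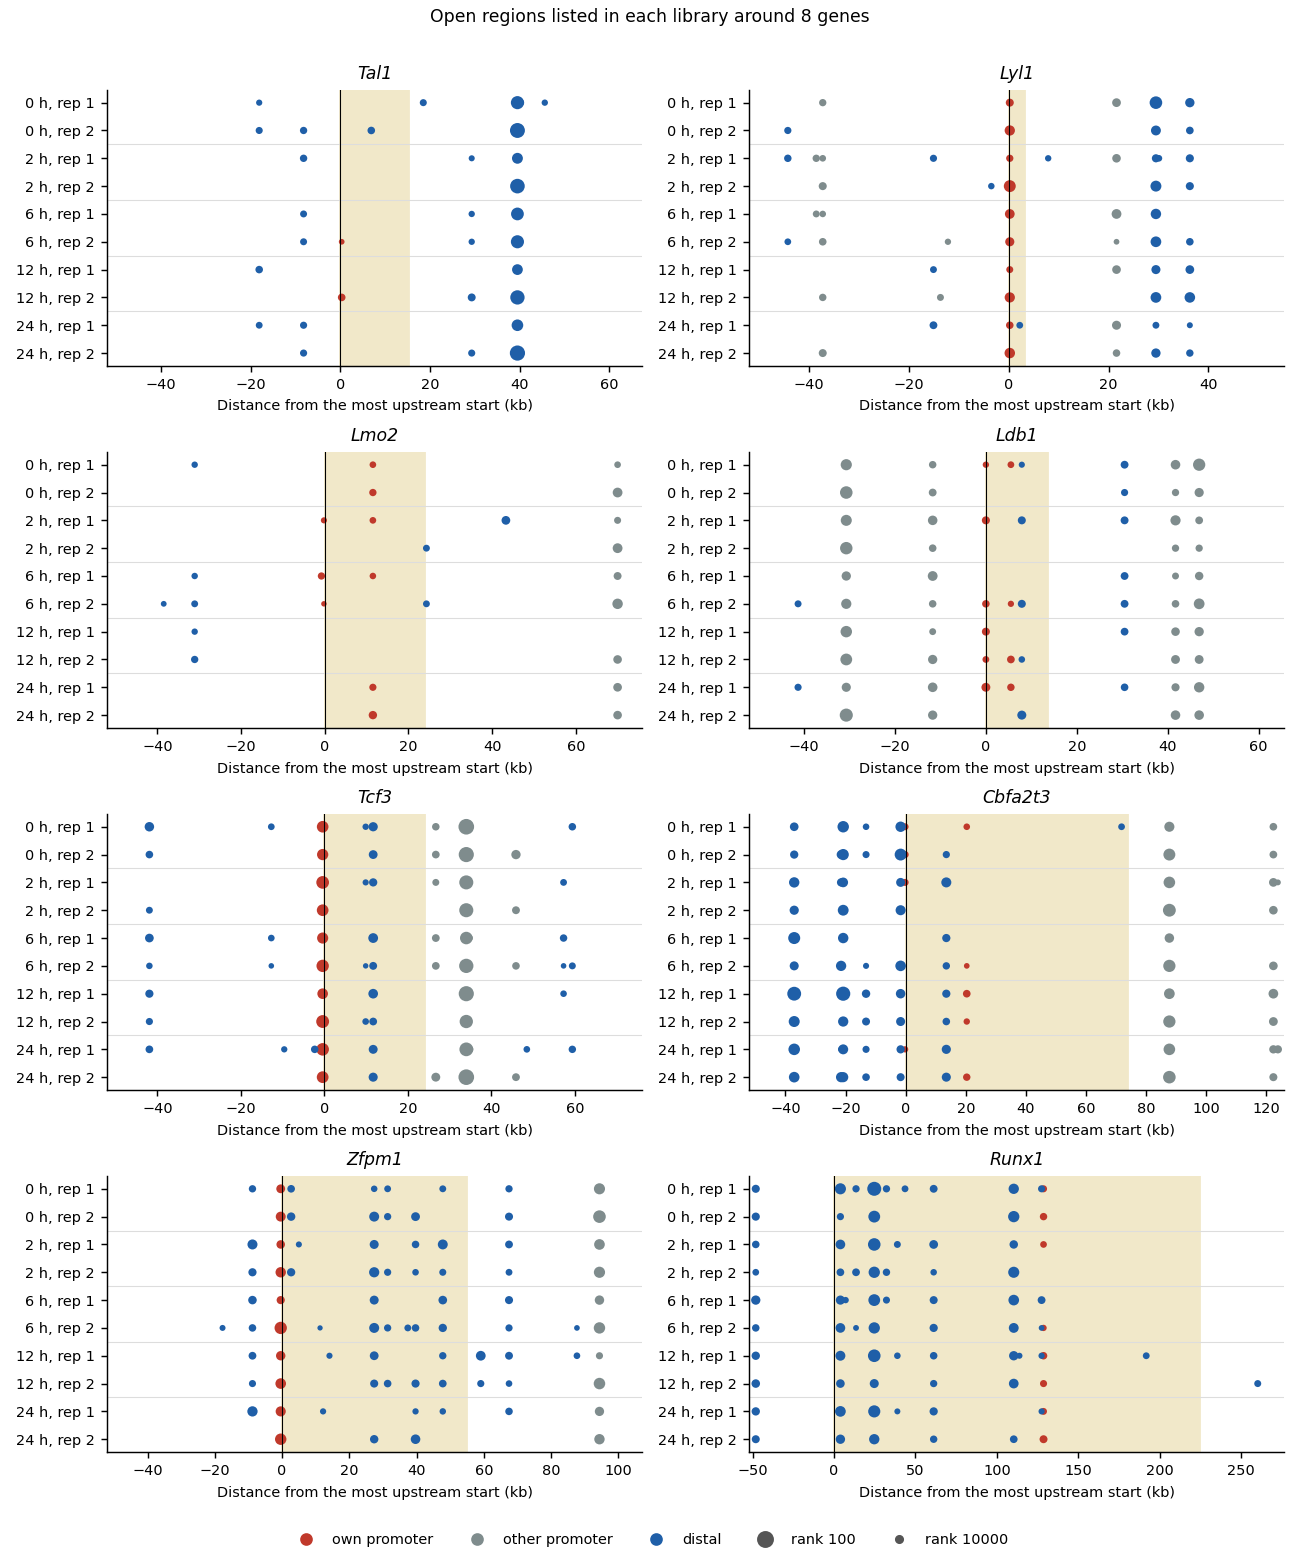
Open regions around the 8 genes in every library. The x axis is the distance from the most upstream start in kb, counted in the direction of transcription, and each row is a library. A point is a region listed in that library, larger for a rank nearer the top, red for an own promoter, grey for the promoter of another gene and blue for distal, and shading marks the gene. Tal1 shows a large point at +39.5 kb in all 10 rows and a small promoter point in 2.

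The promoters of the 8 genes differed in how often they were listed. Those of Lyl1, Tcf3 and Zfpm1 were listed in 10 of 10 libraries, those of Cbfa2t3 and Runx1 in 8, that of Lmo2 in 7, that of Ldb1 in 6 and that of Tal1 in 2. None of the 8 was absent from all libraries, whereas among all 21851 protein-coding genes 26.6% had a promoter peak in every library, 17.9% in some and 55.5% in none. A gene counted as listed when any of its starts had a peak within 1 kb. Shares by region count only places with a peak in some library, so they cannot be set against the shares of genes. Of the 30 promoter regions, own or other, 10 were in all 10 libraries (33.3%, against 50.0% of all promoter regions). Of all 98 regions 16 were (16.3%, against 21.5%).

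Among the DNA-binding proteins, the Tal1 promoter (chromosome 4 from 115056401 to 115057013) was listed at rank 16986 in 6 h replicate 2 and at rank 8686 in 12 h replicate 2, and in no other library. In contrast, the Tcf3 promoter (chromosome 10 from 80433655 to 80434378) was among the highest ranked of all these regions. Over 0, 2, 6, 12 and 24 h its ranks were 1146, 575, 1544, 2066 and 629 in replicate 1 and 1418, 1102, 713, 513 and 1055 in replicate 2. Both libraries of 2 h and both of 24 h ranked nearer the top than both 0 h libraries, whereas those of 6 h and 12 h lay on either side of them. All of these peaks lay at the 5 upstream Tcf3 starts, and none was within 1 kb of the starts at 80431012 and 80431082.

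The Lyl1 promoter (chromosome 8 from 84701279 to 84701961) holds 2 GATA consensus matches and the composite printed above, which lies inside the gene. The ranks, in order of time, were 7445, 10002, 3296, 11118 and 8959 in replicate 1 and 2484, 940, 4469, 2520 and 2218 in replicate 2. Replicate 2 ranked nearer the top at 4 of the 5 time points, and the 0 h ranks lay within the range of the later ones.

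Of the bridging proteins, Lmo2 has starts in 2 places. The upstream start was near a peak in 3 libraries, 1 at 2 h and both at 6 h. The downstream group of starts, at the +11.5 kb region (chromosome 2 from 103969236 to 103969837), was listed in both libraries at 0 h (ranks 12554 and 9750), in 1 at 2 h (12369), in 1 at 6 h (12946), in neither at 12 h and in both at 24 h (10296 and 6294). The downstream starts were thus listed in both libraries at 0 h and at 24 h. Their absence at 12 h may mean a peak below the peak caller's limit. At Ldb1 the region at the most upstream start (chromosome 19 from 46044872 to 46045596) was listed in 1 library at 0, 2, 6 and 24 h and in both at 12 h, with ranks from 4970 to 13774. A second Ldb1 promoter region, +5.5 kb, was listed in 4 libraries.

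The corepressor gene Cbfa2t3 had peaks at different starts in different libraries. The region at its upstream start, -0.2 kb (chromosome 8 from 122698943 to 122699601), carries a composite and was listed in both 0 h libraries (ranks 11409 and 10433), in 2 h replicate 1 (10867) and in 24 h replicate 1 (14263). The region at the downstream starts, +20.3 kb, was listed in 0 h replicate 1 (12735), in 6 h replicate 2 (17116), in both libraries at 12 h (8539 and 13634) and in 24 h replicate 2 (9390). Each start was thus listed in 4 or 5 libraries, at ranks from 8539 to 17116, and 1 library, 0 h replicate 1, listed both.

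The Zfpm1 promoter (chromosome 8 from 122281172 to 122282231) was listed throughout. In replicate 1 it ranked 5143 at 0 h and 5853, 6915, 3921 and 2691 at the later times, and in replicate 2 2998 at 0 h and then 2339, 729, 2054 and 1293. Both 24 h ranks were nearer the top than both 0 h ranks, and replicate 2 was nearer the top at every time point. The fitted difference in log2 rank between 24 h and 0 h was -1.07 ± 1.01 (SE), about the size of its error, and did not pass the limma test described below.

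Runx1 is transcribed from an upstream and a downstream promoter. The upstream start at position 92826149 had no peak within 1 kb in any library. The downstream starts at 92697328 and 92696125 shared 1 region, +128.7 kb (chromosome 16 from 92697090 to 92697760), which was listed in 8 libraries at ranks from 7553 to 13947 and was missing from 2 h replicate 2 and 6 h replicate 1.

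Away from promoters, 6 of the 68 distal regions were listed in all 10 libraries (8.82%, against 6.64% of all 19034 distal regions), and 25 were listed in 1 library (36.8%, against 39.3%). The 6 belonged to Tal1, Lyl1, Cbfa2t3 and Runx1, with 3 at Runx1, whereas Lmo2, Ldb1, Tcf3 and Zfpm1 had none. Ordered by mean log2 rank among the 1264 distal regions of the genome in all 10 libraries, they stood 45th (Tal1 +39.5 kb), 105th (Runx1 +24.7 kb), 238th (Cbfa2t3 -37.1 kb), 382nd (Lyl1 +29.5 kb), 600th (Runx1 +3.9 kb) and 1132nd (Runx1 -48.1 kb).

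The Tal1 +39.5 kb region (chromosome 4 from 115095564 to 115096234, intergenic, with Pdzk1ip1 as the nearest start) stood out against its own promoter. An erythroid enhancer is known at about this distance downstream of Tal1. Over 0, 2, 6, 12 and 24 h its ranks were 425, 1754, 548, 1893 and 1144 in replicate 1 and 113, 144, 432, 181 and 91 in replicate 2. In replicate 2 it never fell below rank 432, and in replicate 1 it ran from 425 to 1893, so that replicate 2 was nearer the top at all 5 time points. Mean log2 rank was 9.93 ± 0.98 (SD, n = 5) in replicate 1 and 7.35 ± 0.87 in replicate 2. The 10 summits spread over 170 bp, and the composite, printed above, lies 99 bp from their median.

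The Lyl1 +29.5 kb region (chromosome 8 from 84730633 to 84731268) lies in an intron of Nfix, and holds 3 GATA matches, 2 of them in composites. The ranks, in order of time, were 609, 6940, 2308, 4610 and 11482 in replicate 1 and 3018, 1706, 1960, 1945 and 4055 in replicate 2. Both 24 h ranks were further down than both 0 h ranks, and replicate 1 spanned the wider range, from 609 to 11482. The 10 summits spread over 135 bp, with the composites 42 bp to one side and 29 bp to the other side of their median.

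The Cbfa2t3 -37.1 kb region (chromosome 8 from 122735632 to 122736705) moved the other way. In replicate 1 it ranked 5577 at 0 h and 2350, 891, 256 and 1190 at the later times, and in replicate 2 6665 at 0 h and then 4291, 4665, 1646 and 2052. Both libraries of 2, 6, 12 and 24 h were nearer the top than both 0 h libraries, and replicate 1 was nearer the top at all 5 time points. The annotation places this stretch in an intron of Gm20388, a long gene model that runs across both Zfpm1 and Cbfa2t3, and outside the annotated Cbfa2t3 gene.

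Closer to Cbfa2t3, the -20.8 kb region was listed in 9 libraries at ranks from 203 to 3315 and was missing from 6 h replicate 2. Its neighbour at -21.5 kb was listed in 5 libraries, among them 6 h replicate 2 at rank 2444. Both regions carry a composite. The -1.7 kb region, also in 9 libraries, ranked 2320 and 952 at 0 h and 6657 and 7383 at 24 h. These 3 regions were chosen after their values were seen.

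At Runx1 the region with the best mean log2 rank was +24.7 kb (chromosome 16 from 92800767 to 92802143), in the first intron, where a blood enhancer is known. Over 0, 2, 6, 12 and 24 h its ranks were 229, 629, 1027, 605 and 819 in replicate 1 and 1007, 1366, 1384, 4674 and 2404 in replicate 2. Replicate 1 was nearer the top at all 5 time points. The summits spread over 876 bp, and the composite lies 42 bp from their median. It is not among the 12 counted above, because the middle of this 1377 bp region is away from the median summit. The +3.9 kb region ranked between 1540 and 10246 and the -48.1 kb region, intergenic and with a composite, between 4129 and 12192.

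The 4 genes without a distal region in every library still had distal regions that recurred, named here after their values were seen. In an intron of Tcf3 the +11.7 kb region was listed in 9 libraries at ranks from 3211 to 8088, missing from 2 h replicate 2. Zfpm1 had 2 such regions, +27.4 kb in its own intron (9 libraries, ranks from 2563 to 13032) and +67.5 kb beyond its end (9 libraries, 7134 to 12619), and each was missing from 1 of the 24 h libraries. The bridging proteins had 3 distal regions at Ldb1 and 4 at Lmo2. Ldb1 +30.5 kb was listed in 7 libraries at ranks from 7698 to 10458, and Lmo2 -31.1 kb in 5 libraries at ranks from 9748 to 13748, both libraries of 6 h and 12 h among them.

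The highest ranked region in any of the windows belonged to a neighbour. It is the promoter of Mbd3, a subunit of the NuRD remodelling complex, at Tcf3 +34.0 kb, with ranks from 43 to 633 across the 10 libraries. Both 0 h libraries (51 and 96) and both 24 h libraries (278 and 43) were in that range, and they overlapped.

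**Figure D2:**
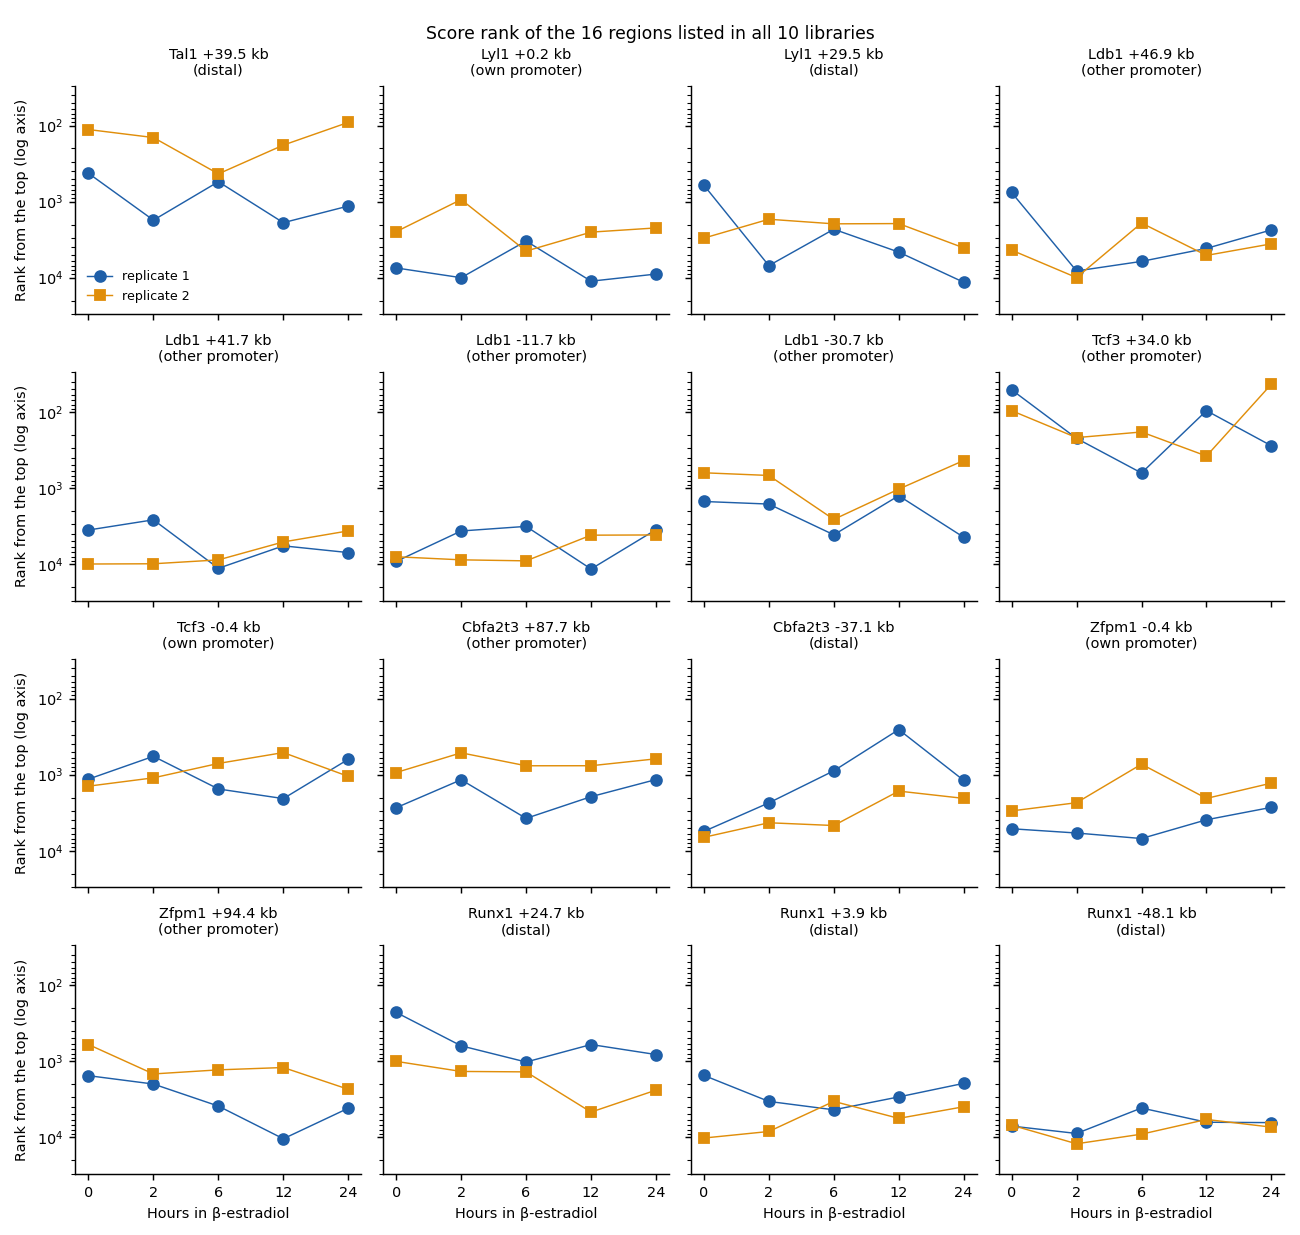
Score rank of the 16 regions listed in all 10 libraries. The x axis is hours in β-estradiol and the y axis is the rank from the top of the library's list on a reversed log axis, with blue circles for replicate 1 and orange squares for replicate 2. At Tal1 +39.5 kb replicate 2 lies above replicate 1 at every time point, most narrowly at 6 h (ranks 548 and 432).

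The number of peaks per window gives a coarser view of the same loci. The Tal1 window held 5, 3, 3, 2 and 3 peaks over the 5 time points in replicate 1 and 4, 1, 4, 3 and 3 in replicate 2. It was the only one of the 8 with fewer peaks in both 24 h libraries than in both 0 h libraries, and no window had more. Across the 16327 genes with a peak in the same kind of window, 5.13% had fewer and 4.48% had more. The other means went from 4.5 to 5.5 at Lyl1, from 2.5 to 2.0 at Lmo2, from 7.5 to 5.5 at Zfpm1 and from 7.5 to 6.5 at Runx1, and were equal at 0 h and 24 h for Ldb1 (7.0), Tcf3 (7.5) and Cbfa2t3 (9.5). An exact permutation test of 2 libraries against 2 cannot go below p = 0.333, and no other test was run on these counts.

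**Figure D3:**
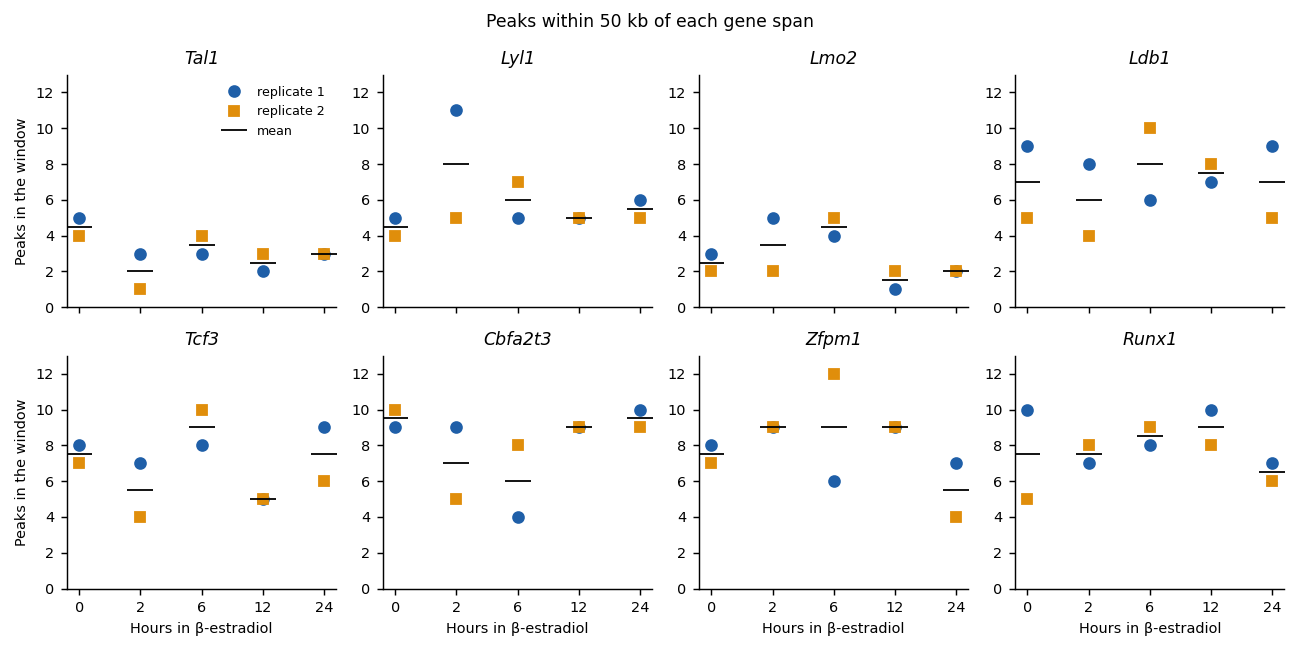
Peaks within 50 kb of each gene span. The x axis is hours in β-estradiol and the y axis the number of peaks in a library, with blue circles for replicate 1, orange squares for replicate 2 and a bar for their mean. Tal1 runs from 5 and 4 peaks at 0 h to 3 and 3 at 24 h, while the 2 replicates of other windows are often as far apart as the time points.

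A region was counted as gained when it was listed in both libraries of a time point and in neither 0 h library, and as lost in the opposite case. At 2 h, 0 of the 98 regions were gained (2.67% of all regions were) and 2 were lost (2.04%, against 1.15%). At 6 h, 2 were gained (2.04%, against 4.08%) and 3 were lost (3.06%, against 0.759%). At 12 h, 1 was gained (1.02%, against 2.47%) and 4 were lost (4.08%, against 1.88%), and at 24 h, 0 were gained (against 1.71%) and 2 were lost (2.04%, against 3.51%). The counts at the 8 genes were 4 or fewer at every time point.

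Both regions lost by 24 h lie in introns of Zfpm1, the GATA1 cofactor gene. The +2.7 kb region (chromosome 8 from 122284497 to 122285190) was listed at ranks 8618 and 6171 at 0 h, at rank 6574 in 2 h replicate 2, and in none of the 6 libraries from 6 h on. The whole region holds 4 GATA matches. The 221 bp printed above show 3 of them, and 1 of these belongs to a composite 54 bp from the median summit. The +31.4 kb region (chromosome 8 from 122313206 to 122313839) was listed in both 0 h libraries (ranks 11744 and 10036) and afterwards in replicate 2 alone, at 2 h (10224), 6 h (10013) and 12 h (8723). It stood near the end of the shorter lists, and when every list was reduced to its best 10698 peaks it was no longer counted as lost, since its rank in 0 h replicate 1 was above that limit. The Zfpm1 promoter, in contrast, was listed in all 10 libraries.

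Zfpm1 +2.7 kb was counted as lost at 6 h and 12 h too. Of the promoter regions described above, Cbfa2t3 -0.2 kb was lost at 6 h and 12 h and Lmo2 +11.5 kb at 12 h. The other regions gained or lost at 2, 6 or 12 h are named after their values were seen, and those that were lost were listed again later. Tal1 -18.1 kb was lost at 2 h and 6 h and was listed again in replicate 1 at 12 h and 24 h. Cbfa2t3 -13.2 kb was lost at 2 h and was back in both libraries at 12 and 24 h. Tal1 +29.3 kb and Tcf3 +57.3 kb were gained at 6 h, when replicate 2 had the longest list, and Zfpm1 +59.1 kb was listed in both 12 h libraries (ranks 3257 and 10369) and nowhere else. Tcf3 +26.7 kb, the promoter of Uqcr11, was missing from both 12 h libraries and was listed again in 24 h replicate 2.

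Ranks were compared over time in the 6234 regions listed in all 10 libraries, 16 of which lay in the windows of the 8 genes. limma was fitted to log2 rank over all of them, once with a slope per time step from 0 to 24 h and once as 24 h against 0 h, where a positive value means a fall down the list. No region of the genome passed an adjusted p of 0.05 in either fit (0% called), with 297 and 240 of 6234 regions at an unadjusted p under 0.05. Among the 16 regions this was so for 3 (18.8%, against 4.76% of all) and for 1. With the replicate number as a block, since same-numbered libraries deviated together, limma called 1 and 2 regions of the genome, and none of them was among the 16.

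Slopes of the 16 regions ran from -0.62 to 0.45 log2 units per step, 8 above and 8 below 0, with a median of 0.00 against -0.01 for all regions. Cbfa2t3 -37.1 kb had the most negative slope, -0.62 ± 0.22 (SE, limma, adjusted p = 0.994, and adjusted p = 0.395 with the replicate block). Lyl1 +29.5 kb had the most positive, 0.45 ± 0.21 (SE, limma, adjusted p = 0.994). The promoter of Zc3h18 in the Zfpm1 window, +94.4 kb, had a slope of 0.44 ± 0.20 (SE, limma, adjusted p = 0.994). These are the 3 regions with an unadjusted p under 0.05, and none passed after adjustment. The slope of Tal1 +39.5 kb was 0.13 ± 0.30, so that its standard error was wider than the slope itself.

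**Figure D4:**
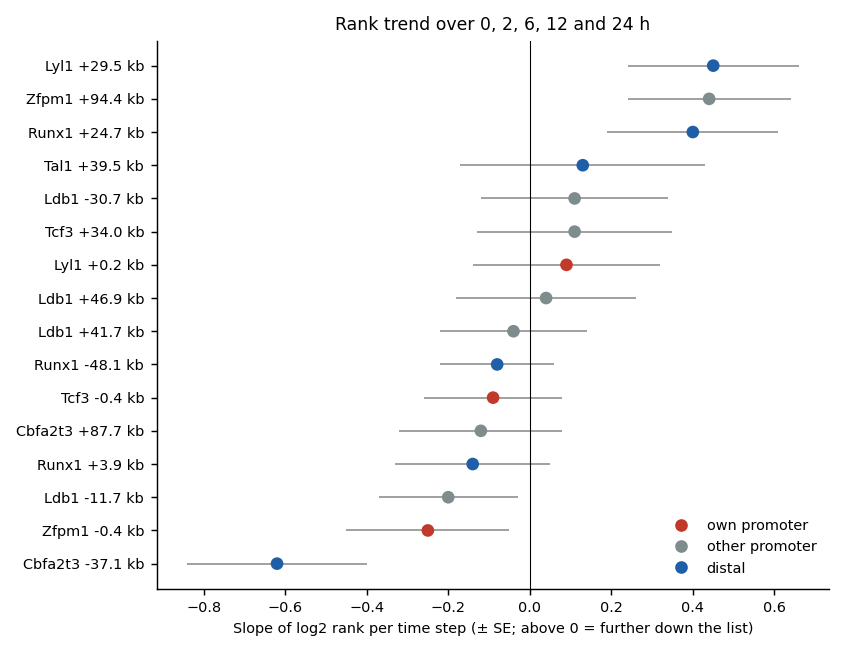
Slope of log2 rank per time step for the 16 regions in all 10 libraries. The x axis is the limma slope with bars of 1 SE, above 0 for a fall down the list, and each row is a region, coloured by own promoter, other promoter or distal. The regions run from Cbfa2t3 -37.1 kb at -0.62 to Lyl1 +29.5 kb at 0.45, and none passed after adjustment.

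In several of these regions the rank went with the replicate number. Replicate 2 ranked nearer the top at all 5 time points in 5 of the 16 regions (31.2%, against 12.4% of the 6234 regions), namely Tal1 +39.5 kb, the Zfpm1 promoter and the promoters of Zc3h18, Galns and Nolc1. Replicate 1 did so in 2 (12.5%, against 7.46%), the distal regions Cbfa2t3 -37.1 kb and Runx1 +24.7 kb. The study describes independent experiments, but neither it nor the labels say what a shared replicate number marks, and its part in these ranks was not tested.

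The consensus letters were counted in the central 200 bp of every region. The GATA consensus was in 38.2% of the 68 distal regions and in 37.9% of all distal ones. It was in 6 of the 30 promoter regions, against 6.74% of all 9947. The composite was in 13.2% of the distal regions (7.11% of all) and in 3 of the 30 promoter regions (10.0%, against 0.935%). Those 3 are the promoters of Lyl1 and Cbfa2t3 and the +123.8 kb region at the start of Aprt. Among distal regions in all 10 libraries, 3 of 6 held a composite, at Tal1, Lyl1 and Runx1 -48.1 kb, against 13.6% of 1264.

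The E-box CAGCTG was in 17.6% of the distal regions (14.7% of all), the E-box CAGATG in 20.6% (18.6%) and the RUNX letters TGTGGT in 25.0% (20.3%). CAGATG was in 16.7% of the promoter regions, against 6.89% of all, and in 3 of the 6 distal regions in all libraries, against 15.9%. The ETS letters CCGGAA were in 6 of the 30 promoter regions (21.5% of all) and in 0 of the 68 distal regions (3.49%). The composite contains the GATA consensus, so these shares are not independent. Regions of the 8 genes had a median GC content of 55.5%, against 50.5% for all. A match describes letters in this window and does not show that a factor was bound.

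**Figure D5:**
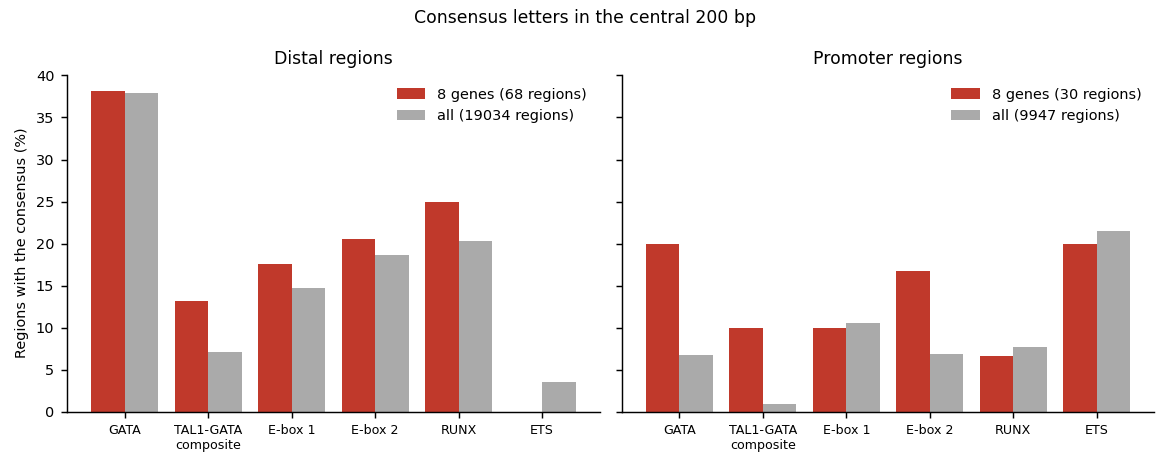
Share of regions with each consensus in the central 200 bp. Bars give the percent of distal regions (left) and promoter regions (right), red for the 8 genes and grey for all regions, where E-box 1 is CAGCTG and E-box 2 is CAGATG. The GATA bars are level for distal regions (38.2% and 37.9%) and apart for promoters (6 of 30 regions, and 6.74% of all).

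A list of 26 other genes of the complex and its surroundings, among them GATA factors, E proteins, ID inhibitors, SSBP adaptors and the corepressors KDM1A, RCOR1 and HDAC1, was counted in the same way. Their windows held 203 regions, 13 of which also lie in the windows above. At 24 h, 1 region was gained (0.493%, against 1.71% of all regions) and 9 were lost (4.43%, against 3.51%). limma called 0 in either fit, with 2 regions at an unadjusted p under 0.05 in each. Of the 26 windows 0 had more peaks at 24 h (4.48% of all gene windows did) and 2 had fewer (5.13% did). Those 2, named after their values were seen, were Gata2 (mean 5.5 at 0 h and 2.0 at 24 h) and Erg (3.5 and 1.0). Promoters of the 26 genes were listed in all 10 libraries for 10 genes (26.6% of all genes were) and in none for 8 (55.5%).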

How the data were processed

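ATAC-seq peak lists of 10 G1E-ER4 libraries were used, grouped by the time point and replicate number in their titles. The authors aligned reads to mm10, kept uniquely placed ones and called peaks with MACS2 in each library. The methods name Bowtie2, whereas the submitters' processing notes name Bowtie 1.0.0. No shift for Tn5 is stated. The deposited lists hold summits of 1 bp and a score, the −log10 q-value of each peak (lowest 1.30). Read depth is unknown and no counting interval is given.

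Summits were extended by 250 bp and merged over all libraries. Starts came from GENCODE release 21 for the mouse (basic set, 41438 starts of 21851 protein-coding genes), and sequence from RefSeq's GRCm38.p6, which is mm10. Log2 ranks were fitted with limma 3.58.1 in R 4.3.3 and adjusted by the Benjamini-Hochberg method over 6234 regions. The fit was also run on simulated data with independent noise in each library, which leaves out the shared deviation given next. Same-numbered libraries deviated together from their time means (correlations 0.217 to 0.384 between time points), so the replicate number was also fitted as a block. With 2 libraries per time point these deviations mirror each other, so correlations between different numbers (-0.384 to -0.217) carry no separate information.

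Named regions were own promoters, the best distal region in all libraries, and regions gained or lost at 24 h or past an adjusted p of 0.05. The genes, lists and tests were chosen with earlier results of these data known. Alternatives covered rank scale, summit window, list length, score, window size, hours and left-out libraries. A marker gene of the fixed list is not reported here.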

Additional observations from a re-analysis of the deposited data

How the results depend on the processing

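No limma call at the 8 genes was made under any alternative. Genome-wide calls were 0 and 0 except with the replicate block, which gave 1 for the trend and 2 for 24 h against 0 h. Counts of gained and lost regions at the 8 genes rest on single libraries. With a score of at least 3, the windows of the 8 genes held 92 regions. Of these, 1 was lost at 2 h (1.17% of all regions were) and 1 was gained at 6 h (3.94%). In that setting 2 windows had fewer peaks at 24 h, and no share of all windows is given for it. With lists of equal size they held 71 regions. The 6 h loss was then 1 (2.17% of all regions), the 12 h gain 3 (2.12%) and loss 2 (2.51%). At 24 h the gain was 1 (2.66%) and the loss 1 (3.80%). Both settings shorten the lists, and the part of list length in these counts was not tested. Leaving out 1 library gave 1 to 11 gained and 3 to 13 lost at 2 h, 4 to 12 gained and 4 to 9 lost at 6 h, 2 to 8 gained and 6 to 13 lost at 12 h, and 1 to 9 gained and 4 to 12 lost at 24 h. Each such count asks for 1 library in place of 2, so the shares of all regions given here do not apply to it. Windows with more peaks at 24 h then numbered 0 to 2 and those with fewer 1 to 4, again without a share of all windows. The GATA consensus was in 32 regions over the central 200 bp and in 52 over the whole region. No share of all regions is given for whole regions. The slopes of the 3 regions with an unadjusted p under 0.05 kept their sign with each library left out. These regions were picked by p in the same data, so this is no further support. Both other summit widths gave the same slopes. The replicate block could not change a slope, since each time point has 1 library of each number. The setting of regions in at least 8 libraries keeps the same ranks. The slope of Lyl1 +29.5 kb, 0.45, fell to 0.25 without 0 h replicate 1 and to 0.29 without 24 h replicate 1. Presence in a list cannot separate a closed region from one below the peak caller's limit.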
